A study of Homo sapiens with 10 samples.

Results

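The transcriptional cyclin-dependent kinases (CDKs) other than CDK12 and CDK13 were examined together with their cyclins and regulators, as 10 genes in 3 complexes. These were CDK9, CCNT1, CCNT2 and HEXIM1 of the positive transcription elongation factor P-TEFb, CDK7, CCNH and MNAT1 of the kinase of the initiation factor TFIIH, and CDK8, CDK19 and CCNC of the kinase module of Mediator. The members described here are the poly(A) peaks whose summit lay inside the GENCODE 44 body of one of these genes or at most 600 bp past its 3′ end. By this rule there were 146 peaks among the 178837 of the whole list (0.0816%).

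The data came from IMR-32 cells, an established human neuroblastoma line, transduced with pLKO.1 viruses that express short hairpin RNAs (shRNAs) and selected with puromycin. Cells received CDK12 sh22, CDK12 sh98, CDK13 sh701, CDK13 sh704 or, as the control, a hairpin against GFP, with 2 libraries for each of these 5 constructs and 10 libraries in all. Libraries were made by poly(A) 3′-seq, a method that primes on the tail with oligo(dT) and reads from close to the site of cleavage. The authors pooled the reads before a single round of peak calling, so the list holds no value for a library or a group, no strand and no read totals.

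Only this list was used, and coverage tracks that the labels also name were not analysed here. From the list alone, the knockdowns were not compared with the control, the loss of CDK12 or CDK13 was not checked, and no spread between replicates was available. Fewer cells of a type and less RNA per cell cannot be told apart in such bulk libraries. Strand was taken from the gene, and 18 of the 146 peaks lay where a gene on the other strand overlaps, so that their origin is uncertain. Another annotated gene on the same strand overlaps 16 MNAT1 peaks and 1 CDK19 peak, which cannot be told apart from it either. Of 3 genes of the noradrenergic neuroblast lineage, HAND2, GATA3 and TH, each had at least 1 peak at an annotated end, with strongest pileups of 46, 60 and 21 reads. These 3 were chosen after values were seen, and 68.7% of the 20033 protein-coding genes had such a peak. The median strongest pileup of genes with such a peak was 23 reads, so these values do not identify the cells.

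Transcriptional CDKs act at successive steps of RNA polymerase II transcription. The TFIIH kinase phosphorylates the carboxy-terminal domain of the polymerase at initiation, P-TEFb releases paused polymerase into elongation and is held inactive by HEXIM1 in the 7SK ribonucleoprotein, and the Mediator kinase module modulates how Mediator engages the polymerase. Transcripts end by cleavage and polyadenylation, which is directed by a hexamer such as AATAAA shortly upstream of the cut and can also occur inside introns. Oligo(dT) can in addition prime on runs of A within an RNA, and genomic A next to a peak is therefore recorded alongside each site.

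The sites that carry the ends of these transcripts are shown first. For 9 of the genes, the line gives the 30 bases that end at the 3′ edge of its strongest 3′ untranslated region (UTR) peak with AATAAA or ATTAAA ending 10 to 40 bases upstream and close enough to lie within the 30 bases, read 5′ to 3′ on the strand of the gene from GRCh38. Capitals mark the hexamer. All 10 genes had such a site. The share over all protein-coding genes was not computed, so this count is not read as a trait of these genes. At these sites the hexamer was ATTAAA in CDK9 and CCNT2 and AATAAA in the other genes. A stronger 3′ UTR peak of CCNT2, with 37 reads, had AATAAA too far from the edge to lie within the 30 bases.
CDK9, chr9:127790058-127790087, plus strand: ATTAAAagttgaattttttttttttttaaa
CCNT1, chr12:48688461-48688490, minus strand: tcccatcAATAAAtgttaatggtaaaacac
CCNT2, chr2:134957376-134957405, plus strand: tATTAAAaagcattatctttaaacatccta
HEXIM1, chr17:45150623-45150652, plus strand: tatAATAAAtttaatatttgtaaatgtaac
CDK7, chr5:69277392-69277421, plus strand: acttAATAAAaattattaccagttatttgg
CCNH, chr5:87394266-87394295, minus strand: aaAATAAAccatcttcaaaagagctagaat
MNAT1, chr14:60968650-60968679, plus strand: ttttaaaaAATAAAgctataatttatatta
CDK8, chr13:26405208-26405237, plus strand: atgtAATAAAtttatttttcataaatcaaa
CDK19, chr6:110609979-110610008, minus strand: tcttggttgaAATAAAatttaattgacttt

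Most peaks of these genes were intronic, and intronic peaks were mostly weaker than terminal and exonic ones. Summits were classed as terminal (within 200 bp upstream to 600 bp downstream of the end of any annotated transcript of the gene), exonic or intronic. There were 17 terminal (11.6%), 17 exonic (11.6%) and 112 intronic peaks (76.7%), and over all protein-coding genes the shares were 18.8%, 10.3% and 70.9%. P-TEFb genes had 27 peaks, of which 48.1% were intronic. The TFIIH kinase and Mediator kinase genes had 59 and 60 peaks, of which 84.7% and 81.7% were intronic. CDK12, CDK13 and CCNK, the genes of the depleted kinases and of their cyclin, together had 62 peaks, of which 62.9% were intronic. These include CCNK peaks that lay within CCDC85C, a gene on the other strand.

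Peak strength was read as the pileup, the number of extended reads over the summit, which was recovered from the deposited fold and p-value. Since 1 read was kept per position, pileups saturate where many molecules end together, and they rank sites only roughly. The median pileup of the 10 genes was 23 reads at terminal peaks (8 to 57), 18 at exonic peaks (7 to 44) and 8 at intronic peaks (3 to 24), next to 17, 13 and 8 reads over all protein-coding genes. A pileup of at least 20 reads was reached by 9 of the 17 terminal peaks (background over all protein-coding genes 39.5%), 7 of the 17 exonic peaks (26.3%) and 2 of the 112 intronic peaks (4.66%). The maps of the peaks along the genes show low intronic stems, and tall ones both at and away from annotated ends.

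**Figure D1:**
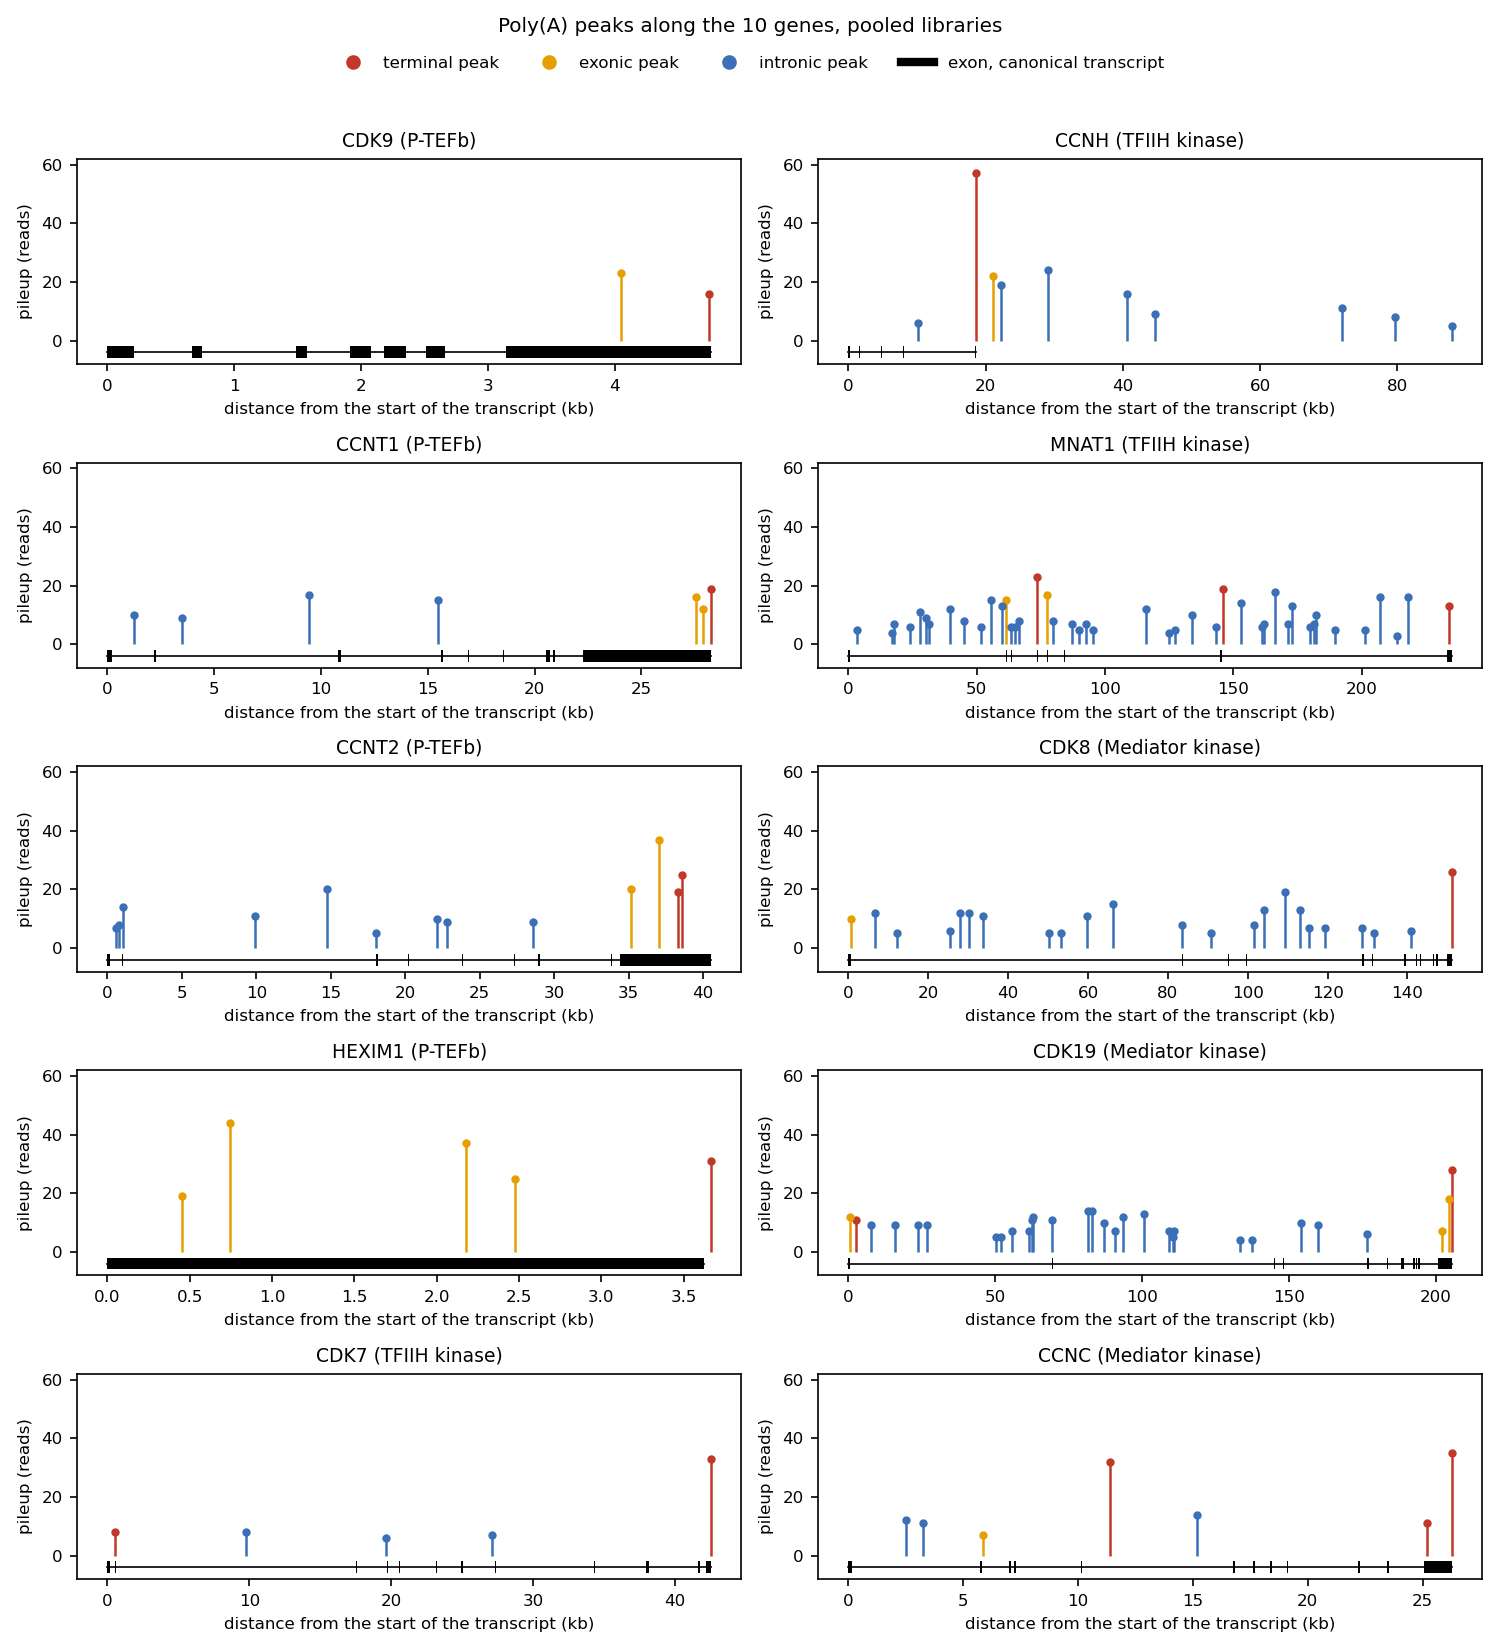
Poly(A) peaks along the 10 genes in the pooled libraries, with the distance from the start of the canonical transcript (kb) on the x axis and the pileup at the summit (reads) on the y axis; stems are single peaks coloured by class, and black boxes are exons of the canonical transcript. The highest stem is the terminal peak of CCNH at 57 reads, CDK9 and HEXIM1 have no intronic peak, and the 3 long genes MNAT1, CDK8 and CDK19 carry rows of low intronic peaks.

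Every one of the 10 genes had a terminal peak, as had 68.7% of the 20033 protein-coding genes. The pileup of the strongest terminal peak of a gene was 16 reads for CDK9, 19 for CCNT1, 25 for CCNT2 and 31 for HEXIM1. In the TFIIH kinase it was 33 for CDK7, 57 for CCNH and 23 for MNAT1, and in the Mediator kinase it was 26 for CDK8, 28 for CDK19 and 35 for CCNC. By this measure CCNH stood at the top, with 97.1% of the 13761 genes with a terminal peak below it, and CDK9 at the bottom, with 26.3% below it. The median of the 10 genes was 27 reads, compared with 23 over the 13761 genes, and 8 of the 10 were at or above that median. MNAT1 stood exactly at it through a peak in coding exon 4, followed by 8 A in 10 bases. That peak counts as terminal only through MNAT1-203, a transcript without a defined coding sequence, and the only 3′ UTR peak of MNAT1 had 13 reads. In CDK9, CCNT2 and HEXIM1, stronger 3′ UTR peaks of 23, 37 and 37 reads lay outside every end window and are not counted here. By the strongest 3′ UTR peak, MNAT1 and not CDK9 was the lowest of the 10 genes.

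Neighbours in the order of strongest terminal peaks could not be told apart. The 95% Poisson interval, which covers counting error only, ran from 43.2 to 73.9 reads for CCNH and overlapped those of CCNC (24.4 to 48.7), CDK7 (22.7 to 46.3) and HEXIM1 (21.1 to 44). It lay above those of CDK19 (18.6 to 40.5), CDK8 (17 to 38.1) and the 4 genes with lower pileups. The interval for CDK9 was 9.15 to 26 reads, and the intervals of the 8 genes between CCNH and CDK9 all overlapped one another.

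The terminal levels of the kinases and of their partners are plotted beside those of 29 genes of the same pathways. All 29 had a terminal peak, with a median pileup of 31 reads (11 to 54). Among the 7SK proteins, HEXIM2 had 14 reads, MEPCE 31 and LARP7 33. The LARP7 value comes from outside the 3′ UTR of its canonical transcript, where the strongest peak had 16 reads. Of the 7 P-TEFb partners, the highest was AFF4, the scaffold of the super elongation complex, with 54 reads, and the lowest was the elongation factor ELL2 with 11. The 7 TFIIH core genes ranged from 20 reads in GTF2H3 to 43 in GTF2H5, and the 4 Mediator kinase module partners from 24 reads in MED12L to 46 in MED13. CDK12 had 22 reads, CDK13 34 and CCNK 39. A stronger 3′ UTR peak of CCNK, with 45 reads, lay outside the end windows, and CCDC85C on the other strand overlaps both CCNK peaks. Values of GTF2H2, CDK11A and CDK11B are uncertain, since near-identical copies can share reads.

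**Figure D2:**
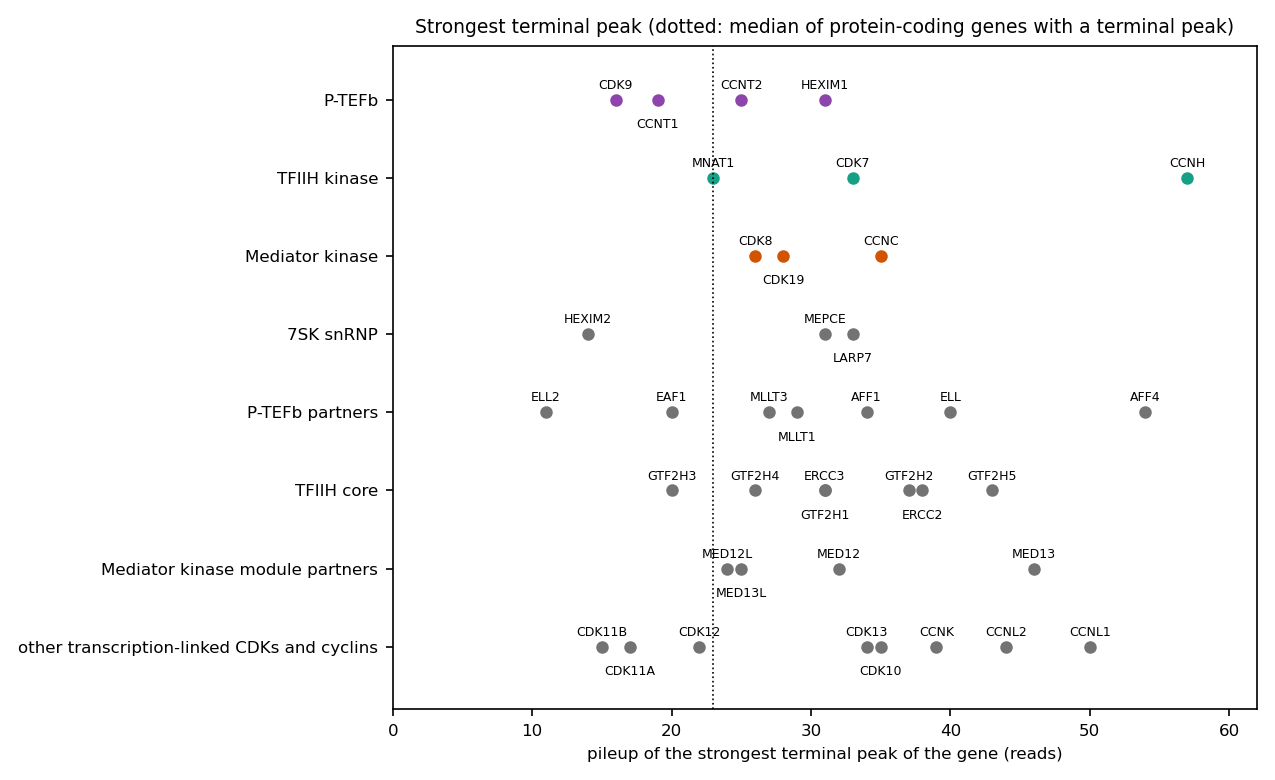
Pileup of the strongest terminal peak of each gene (reads, x axis) for the 3 complexes in colour and 5 lists of pathway genes in grey, 1 point a gene; the dotted line is the median of the 13761 protein-coding genes with a terminal peak. Of the 10 coloured genes, 8 lie at or right of the line at 23 reads, and CDK9 and CCNT1 lie left of it. MNAT1 lies on the line through a peak in coding exon 4, not through its 3′ UTR peak. Stronger 3′ UTR peaks of CDK9, CCNT2 and HEXIM1, outside every end window, are not plotted.

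Within the 3′ UTRs, the 10 genes differed in where their peaks lay. The 3′ UTRs of the canonical transcripts, including 600 bp past their ends, held 19 peaks, and 5 genes had more than 1. A peak within 15 nt of the annotated end was found in 7 genes, namely CDK9, CCNT1, CDK7, CCNH, CDK8, CDK19 and CCNC. The share over all protein-coding genes was not computed for either count, so neither is read as a trait of these genes. In CDK9, CCNT2, HEXIM1 and MNAT1, the strongest 3′ UTR peak lay outside the end window of the canonical transcript, which is 4 of 10 genes against a background of 35.3%. The UTR plot shows these upstream peaks in all P-TEFb genes, in MNAT1 and in CDK19.

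**Figure D3:**
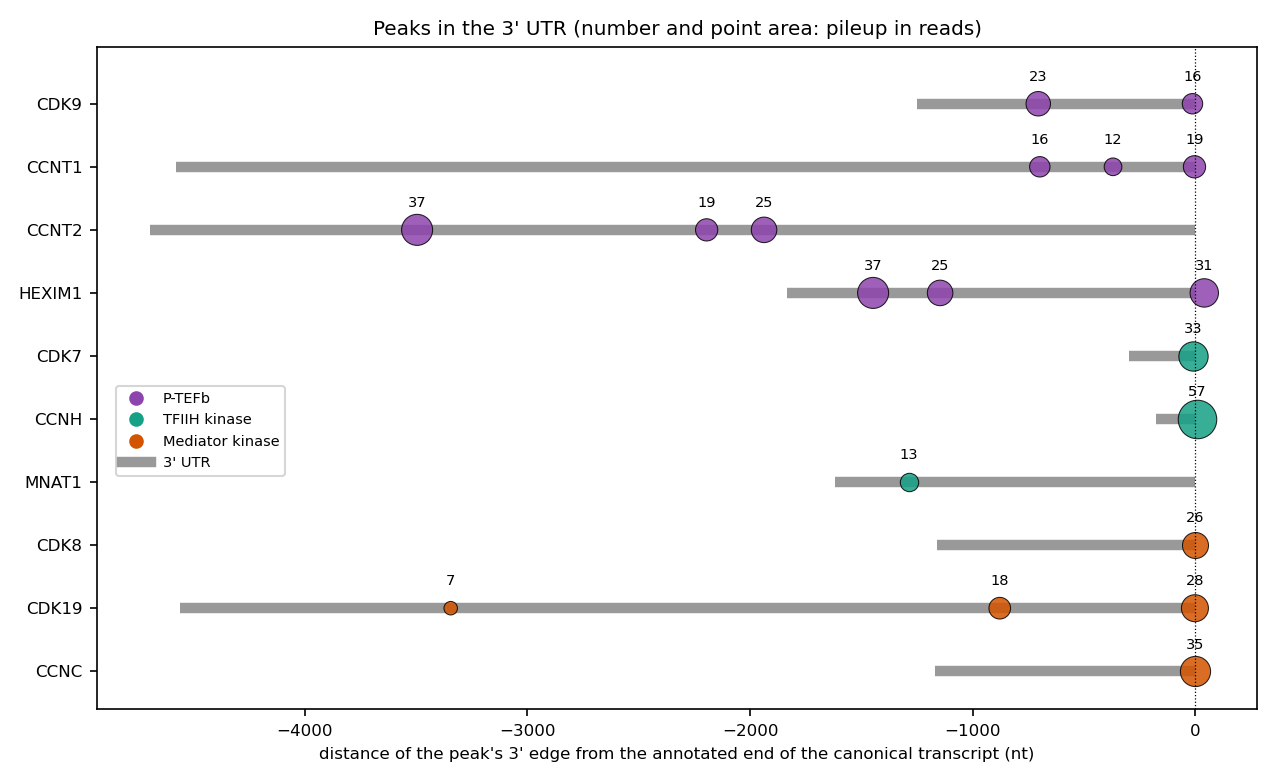
Distance of the 3′ edge of each of the 19 3′ UTR peaks from the annotated end of the canonical transcript (nt, x axis; 0 is the annotated end) for the 10 genes, with the 3′ UTR as a grey bar; point area and the printed number give the pileup in reads. CDK7, CCNH, CDK8 and CCNC have a single peak at the end, whereas CCNT2 and MNAT1 have peaks only upstream of it.

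CDK9, the catalytic subunit of P-TEFb (ENSG00000136807.14, chr9:127785679-127790792, plus strand), is a short gene of 5.1 kb and had only 2 peaks, both in its 3′ UTR of 1252 nt. The stronger one, with 23 reads (14.6 to 34.5), lay 705 nt upstream of the annotated end, outside every end window, and was followed by 0 A in the next 10 genomic bases. The peak 12 nt before the annotated end had 16 reads (9.15 to 26), had AGTAAA as its nearest hexamer, and was followed by 9 A in 10 bases. The intervals of both peaks overlapped. Thus, the site printed above for CDK9 is the upstream one. AATAAA did not occur at all in the gene body of CDK9.

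CCNT1, which encodes cyclin T1, the main cyclin partner of CDK9 (ENSG00000129315.12, chr12:48688458-48716998, minus strand), had 7 peaks over 28.5 kb. Its end peak, 3 nt before the annotated end, had 19 reads (11.4 to 29.7) and 2 A downstream. Upstream peaks in the 4578-nt UTR, at 698 nt and 369 nt before the end, had 16 and 12 reads and were followed by 7 and 8 A. The strongest of the 4 intronic peaks, in intron 2, reached 17 reads, close to the end peak, and lay at A-rich sequence, as did the other 3.

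CCNT2, which encodes cyclin T2 (ENSG00000082258.13, chr2:134918235-134959342, plus strand), had 13 peaks over 41.1 kb and none at the end of its canonical transcript. Its UTR of 4697 nt held peaks 3496, 2195 and 1937 nt before the end, with 37 (26.1 to 51), 19 (11.4 to 29.7) and 25 reads (16.2 to 36.9). Each had AATAAA or ATTAAA 10 to 40 bases upstream and at most 5 A downstream, and the 2 nearer the end fell in the end window of CCNT2-204, a transcript annotated for nonsense-mediated decay. The strongest peak had its AATAAA starting 34 nt before the edge, and the 30 bases that hold it, ending 8 bases before the edge, are given with the hexamer in capitals.
CCNT2 strongest 3′ UTR peak, chr2:134955809-134955838, plus strand: aataAATAAAaaagaaaagattactgactg

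A further CCNT2 peak of 20 reads (12.2 to 30.9) lay in coding exon 9 next to 7 A. Of its 9 intronic peaks, the strongest had 20 reads in intron 2. Another 3 lay in the first intron at 572, 774 and 1054 nt from the start, with 7, 8 and 14 reads.

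HEXIM1, the inhibitor of P-TEFb (ENSG00000186834.4, chr17:45148475-45152099, plus strand), is a single-exon gene with 5 peaks in 3.6 kb. Its strongest peak was not at the end of the transcript but in the 5′ UTR, 746 nt from the start, with 44 reads (32 to 59.1), and a second 5′ UTR peak at 450 nt had 19 reads (11.4 to 29.7). Neither had any of the 12 hexamers within 100 bp upstream, and they were followed by 3 and 1 A. All 5 HEXIM1 peaks, those in the 3′ UTR included, lay over a local background of about 5 reads (4.95 to 5.02), compared with a median of 0.52 over the list. The antisense gene HEXIM2-AS1 overlaps 3 of the 5 HEXIM1 peaks, so these could come from either strand. The 5′ UTR site is printed with the 10 downstream bases in capitals.
HEXIM1 5′ UTR peak, chr17:45149202-45149231, plus strand: attcttgtcagaatatcaacACCAGCCTCA

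The 3′ UTR of HEXIM1, 1832 nt long, had peaks 1447 and 1146 nt before the annotated end with 37 (26.1 to 51) and 25 reads (16.2 to 36.9), each with AATAAA starting 27 nt upstream. The third peak, 41 nt past the annotated end, had 31 reads (21.1 to 44) and an ATTAAA 61 nt upstream. The 3 intervals overlapped, so no order among these sites is set by the counts.

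CDK7, the catalytic subunit of the TFIIH kinase (ENSG00000134058.12, chr5:69234795-69277430, plus strand), had 5 peaks over 42.6 kb. A single site, 9 nt before the annotated end of its 298-nt UTR, reached 33 reads (22.7 to 46.3), and the other peaks had at most 8. One of these, at 561 nt from the start, fell at the end of CDK7-209, a retained-intron transcript. All 3 intronic peaks were A-rich downstream, and the intronic density of CDK7, 7.46 peaks per 100 kb of intron, was above that of 34.8% of genes.

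CCNH, which encodes cyclin H, the partner of CDK7 (ENSG00000134480.16, chr5:87318416-87412930, minus strand), had the strongest peak of all 10 genes, 8 nt past the end of its canonical transcript, with 57 reads (43.2 to 73.9) and a UTR of 175 nt. The gene is annotated over 94.5 kb, whereas the canonical transcript covers 18.7 kb. Of the 10 CCNH peaks, 8 lay in the remainder, where RASA1 runs on the other strand. These included its strongest intronic peak, with 24 reads and 8 A downstream, and an exonic peak of 22 reads with AATAAA upstream. Read from its other edge on the RASA1 strand, this exonic peak also had AATAAA or ATTAAA 10 to 40 bases upstream, so its strand stays uncertain. Inside the canonical transcript, CCNH had a single intronic peak, of 6 reads.

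MNAT1, which assembles CDK7 with cyclin H (ENSG00000020426.11, chr14:60734742-60969965, plus strand), is the longest of the genes at 235.2 kb and had the most peaks, 44. Its only 3′ UTR peak had 13 reads (6.92 to 22.2), 1286 nt before the canonical end and at the end of 3 shorter coding transcripts, with 1 A downstream. Higher pileups were found earlier in the gene. In coding exon 4 a peak of 23 reads (14.6 to 34.5), followed by 8 A, fell at the end of MNAT1-203, a transcript without a defined coding sequence. A peak of 19 reads (11.4 to 29.7) in intron 7 fell at the end of the retained-intron transcript MNAT1-205, and coding exons 2 and 5 held peaks of 15 and 17 reads. All of these intervals overlapped that of the 3′ UTR peak. The 3′ UTR peak and the intron 7 site lie among the 16 peaks that a long noncoding RNA gene, ENSG00000258892, overlaps on the same strand. The exon 4 and intron 7 sites are printed with the 10 downstream bases in capitals.
MNAT1 coding exon 4, chr14:60808391-60808420, plus strand: aaaacaaagatgttattcagAAAAATAAAT
MNAT1 intron 7, chr14:60880615-60880644, plus strand: agaccccaagaacaaaaacaAGAAAGATGA

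In 2 of the 10 genes, HEXIM1 and MNAT1, the strongest peak of the gene thus lay before the 3′ UTR. Over the 13734 protein-coding genes with a 3′ UTR peak, this was so for 22.3%.

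CDK8, a catalytic subunit of the Mediator kinase module (ENSG00000132964.13, chr13:26254104-26420982, plus strand), had 23 peaks over 166.9 kb. The end peak, 1 nt before the annotated end of a UTR of 1160 nt, had 26 reads (17 to 38.1). The strongest of the 21 intronic peaks, in intron 4, had 19 reads and 5 A downstream. A peak of 10 reads lay in coding exon 1, 629 nt from the start, without a hexamer.

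CDK19, the paralogue of CDK8 (ENSG00000155111.15, chr6:110609978-110815958, minus strand), had 30 peaks over 206.0 kb. The end peak, 1 nt before the annotated end, had 28 reads (18.6 to 40.5) and 0 A downstream. In the 4560-nt UTR, a peak of 18 reads (10.7 to 28.4) lay 878 nt before the end next to 8 A, and one of 7 reads lay 3345 nt before it. Near the start, CDK19 had a peak of 12 reads in coding exon 1 at 457 nt, and one of 11 reads at 2407 nt, where the short transcripts CDK19-207 and CDK19-208 end. The latter was followed by 9 A. CDK8 and CDK19 thus had end peaks with overlapping intervals and intronic densities of 12.95 and 12.6 per 100 kb of intron.

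CCNC, which encodes cyclin C, the cyclin of both kinases (ENSG00000112237.13, chr6:99542387-99568825, minus strand), had 7 peaks in 26.4 kb. The end peak, 1 nt past the annotated end, had 35 reads (24.4 to 48.7). A peak in intron 5 had nearly as many, 32 reads (21.9 to 45.2), and fell at the end of CCNC-204, a short coding transcript. This site had AATACA 39 nt upstream and 7 A downstream, and it is printed with the downstream bases in capitals. Another terminal peak, of 11 reads, fell in the last coding exon, where 5 annotated transcripts end. All 7 CCNC peaks lay within TSTD3, a gene on the other strand. Reading the 10 bases past the other edge on that strand gave 7 or more A at 1 of them. The CCNC strand also gave 7 or more A at 1, so this reading does not tell the strands apart.
CCNC intron 5, chr6:99557247-99557276, minus strand: caaaaaaagaagacagaaacATAAAAATAT

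At all 17 terminal peaks, at least 1 of 12 poly(A) signal hexamers lay within 100 bp upstream of the 3′ edge, read on the gene strand (100%, 95% Wilson interval 81.6 to 100%), with a background of 77.7%. The hexamers were AAGAAA, or AATAAA, or AATACA, or AATAGA, or AATATA, or AATGAA, or ACTAAA, or AGTAAA, or ATTAAA, or CATAAA, or GATAAA, or TATAAA. The main forms, AATAAA or ATTAAA, at 10 to 40 bases, where the signal of a used site usually lies, were found at 9 of 17 terminal peaks (52.9%, background 49%) and 5 of 17 exonic peaks (29.4%, background 23.9%). Of the 6 terminal peaks outside the 3′ UTR, which all belong to short or alternative transcripts of CDK7, MNAT1, CDK19 and CCNC, none had them. The share over such peaks of all protein-coding genes was not computed, so nothing is read from this count. Of the 19 3′ UTR peaks, 13 had AATAAA or ATTAAA at 10 to 40 bases, with a background of 54.9% over the 3′ UTR peaks of protein-coding genes. They included peaks of all 10 genes, a count of genes for which no background was computed. A match is a description of the sequence and no measure of use.

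Most intronic peaks of these genes lay at A-rich sequence, as did those of protein-coding genes in general. At least 7 of the 10 genomic bases past the 3′ edge were A at 84 of the 112 intronic peaks (75%, 66.2 to 82.1%), with a background of 66.8% that lies inside this interval. At terminal peaks this was so for 4 of 17 (23.5%, 9.56 to 47.3%, background 20%), and at exonic peaks for 5 of 17 (29.4%, background 31.5%). Read on the other strand, the intronic peaks were A-rich at 2 of 112 (1.79%). The same reading was not made over all protein-coding genes, so this share has no background beside it. All 10 bases were A at 21 intronic peaks (18.8%, background 18.7%).

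**Figure D4:**
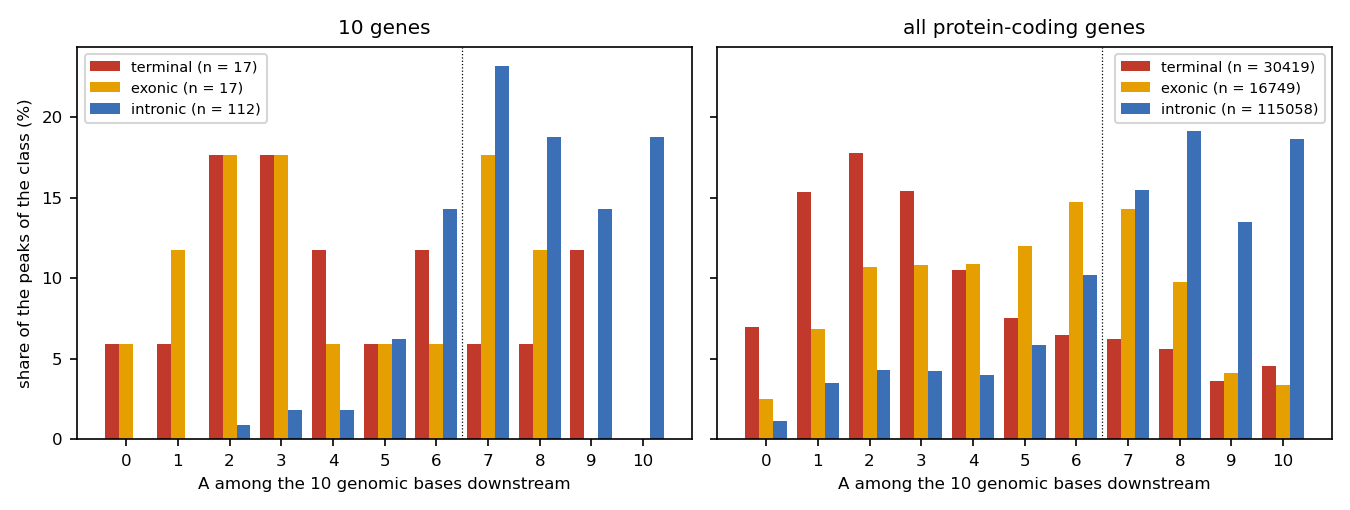
Number of A among the 10 genomic bases downstream of the 3′ edge (x axis) and the share of the peaks of each class with that number (%, y axis), for the 10 genes and for all protein-coding genes; the dotted line separates peaks called A-rich (7 or more). In both panels most intronic peaks lie right of the line, 75% and 66.8%, and most terminal peaks left of it.

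By complex, the share of A-rich intronic peaks was 61.5% in P-TEFb genes (8 of 13), 84% in TFIIH kinase genes (42 of 50) and 69.4% in Mediator kinase genes (34 of 49), with overlapping Wilson intervals of 35.5 to 82.3%, 71.5 to 91.7% and 55.5 to 80.5%. By gene, CCNT1 had 4 A-rich peaks of 4, CCNT2 4 of 9, CDK7 3 of 3 and CCNH 7 of 8. MNAT1 had 32 of 39, CDK8 14 of 21 and CDK19 20 of 25, and CCNC had 0 of 3, all of them inside TSTD3. CDK12, CDK13 and CCNK together had 66.7% (26 of 39), with CCNK peaks inside CCDC85C on the other strand included. The strongest A-rich intronic peak outside genes of the other strand is shown for 6 of the genes with the 10 downstream bases in capitals, because the sequences make clear what the A count measures, with and without a long run of A.
MNAT1 intron 7, chr14:60901005-60901034, plus strand, 18 reads: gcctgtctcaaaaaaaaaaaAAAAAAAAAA
CCNT1 intron 2, chr12:48707284-48707313, minus strand, 17 reads: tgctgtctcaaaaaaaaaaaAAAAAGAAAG
CDK7 intron 2, chr5:69244619-69244648, plus strand, 8 reads: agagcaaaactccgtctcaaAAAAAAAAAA
CDK8 intron 1, chr13:26320404-26320433, plus strand, 15 reads: ccatctcttaaaaattaaaaAAAAAGAAAC
CDK19 intron 2, chr6:110733947-110733976, minus strand, 14 reads: tttaaagtaaacagtagatgAACTAAAAAT
CCNH intron 5, chr5:87402830-87402859, minus strand, 6 reads: acccttatgcttaagaaatcAAAAGGAAAT

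In the MNAT1 and CCNT1 windows the run of A began before the edge and continued past it, and in CDK7 all 10 downstream bases were A. The CDK19 and CCNH windows each held 7 A without such a run. A hexamer of any of the 12 kinds lay within 100 bp upstream of 55 intronic peaks (49.1%, background 49.5%) and of 10 exonic peaks (58.8%, background 64.2%). AATAAA or ATTAAA at 10 to 40 bases was rarer, at 9 of 112 (8.04%, 4.29 to 14.6%, background 12.9%). Of these, 3 were in MNAT1, 2 each in CDK8, CDK19 and CCNC, and none in a P-TEFb gene. The strongest such peaks of CDK19 and CDK8 had 14 and 13 reads and were themselves followed by 8 and 7 A, and those of CCNC had 12 and 11 reads and 6 and 4 A. Capitals in the CDK19 and CDK8 windows mark the hexamer.
CDK19 intron 2, chr6:110732656-110732685, minus strand, 14 reads: ttgtgccacAATAAAatactagtaatataa
CDK8 intronic peak, chr13:26367278-26367307, plus strand, 13 reads: gcagagcaaAATAAAgaacaacaaaaggag

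The number of intronic peaks largely followed the amount of intron. MNAT1, CDK8 and CDK19 held 85 of the 112 intronic peaks (75.9%) and 74.3% of the 796.5 kb of intron sequence. Pooled over the 10 genes there were 14.06 intronic peaks per 100 kb of intron, compared with 11.13 over all genes. At least 1 intronic peak was present in 8 of the 9 genes with at least 1 kb of intron, next to a background of 80.2%. The plot of intronic peaks against intron length places the 9 genes within the cloud of other genes.

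**Figure D5:**
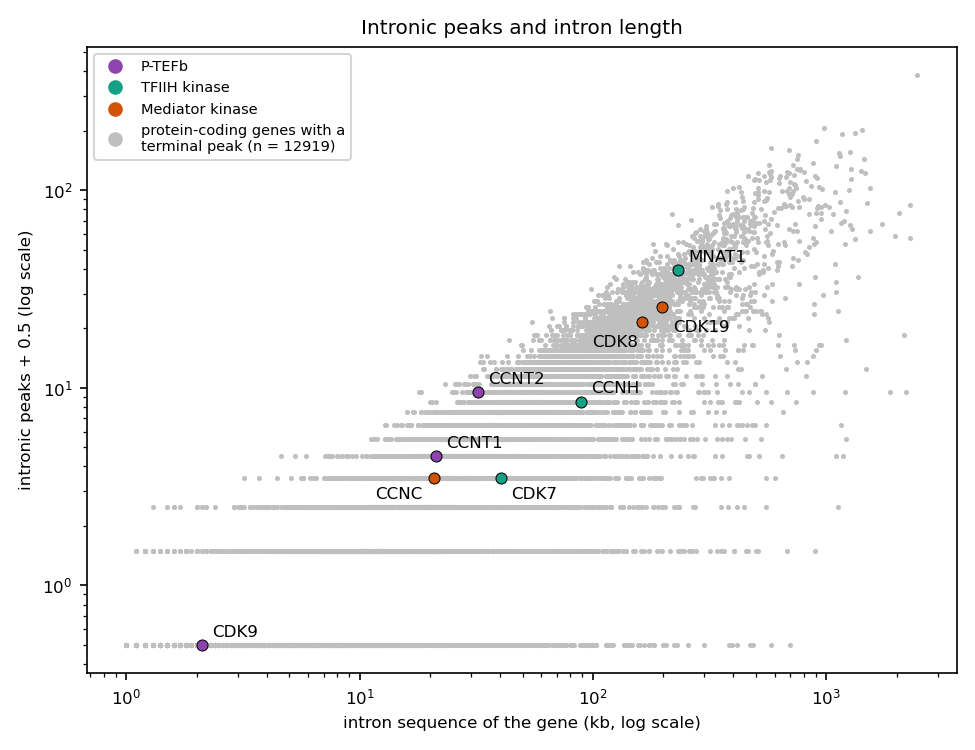
Intronic peaks per gene plus 0.5 (y axis, log scale) against the intron sequence of the gene (kb, x axis, log scale), for the 9 genes of the 3 complexes with at least 1 kb of intron in colour and for 12919 protein-coding genes with a terminal peak in grey. MNAT1 is highest with 39 intronic peaks, and CDK9 lies at 0.

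CCNT2 had the highest density, 28.1 intronic peaks per 100 kb, above 95.2% of genes, followed by CCNT1 with 18.89, above 81%, and MNAT1 with 16.86, above 73.6%. CCNC had 14.4, and the lowest densities were 9.04 in CCNH, 7.46 in CDK7 and 0 in CDK9. In total, 6 of the 9 genes were above the median gene at 11.43. Without peaks in genes of the other strand, CCNC went from 3 intronic peaks to 0 and CCNH from 8 to 1, and 5 of the 9 genes were above that median. Such peaks were left out for these genes only and kept in the median, so that count is not a like comparison. CDK12, CDK13 and CCNK had 12.89, 16.84 and 13.14 per 100 kb. Of the 12 CCNK peaks, 7 lay within CCDC85C on the other strand, intronic ones among them, so their origin is uncertain. With 9 peaks in CCNT2 and 4 in CCNT1, these densities rest on few peaks.

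Along the canonical transcripts, 40 of 105 intronic peaks (38.1%) lay in the first intron, which makes up 31% of the intron sequence of the 9 transcripts. Neither this share nor the split at the midpoint given below was computed over all protein-coding genes, so neither is read as a trait of these genes. In CDK8, the first intron of 82.8 kb held 11 of 21 peaks and 55.9% of the intron length. CDK19 had 17 intronic peaks before the midpoint of the transcript and 8 after it, with median pileups of 9 and 6.5 reads. MNAT1 had 21 and 18, with a median of 7 reads in both. The first 2 kb of the transcripts held 9 peaks outside 3′ UTRs, in CCNT1, CCNT2, HEXIM1, CDK7, CDK8 and CDK19. Of these, 1 was A-rich downstream (background over such peaks of all protein-coding genes 40.4%) and none had AATAAA or ATTAAA at 10 to 40 bases (background 18.3%). With 9 peaks, which were grouped after their values were seen, nothing is read from these counts.

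The sequence of the genes themselves was AT-rich. GC content was below the median protein-coding gene with a terminal peak (45.1%) in 8 of the 10, with CDK9 (57.4%) and HEXIM1 (48.3%) above it. The ratio of U1 snRNP recognition motifs to AATAAA in the gene body compares sequences that U1 binds, which protect nascent RNA from early cleavage, with potential poly(A) signals. Motifs were GGTGAG, or GGTAAG, or GTGAGT, on the gene strand, with overlapping matches counted separately. The ratio was below the median of 1.075 in 7 of the 9 genes with an AATAAA, from 0.299 in CCNH, above only 2.04% of genes, and 0.378 in CCNC to 0.679 in CDK19. The CCNH value was taken over its annotated 94.5 kb, of which the canonical transcript covers 18.7 kb. CCNT1 (1.2) and CDK7 (1.32) were above it.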

How the data were processed

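The deposited narrowPeak list was used. According to the methods and the submitters' processing notes, the authors mapped reads to GRCh38 with STAR 2.5.1b, downsampled libraries from different batches to the smallest size, merged all 10, and called peaks with MACS2 2.1.1 on reads extended to 100 bp. The study then removed peaks with a downstream A stretch of 25 bases and no hexamer; the list used here still holds such peaks, and read from the 3′ edge 6 of the 112 intronic peaks meet it. Each deposited fold is the ratio of pileup to local background after a small constant is added to both. The deposited −log10 p-value and −log10 q-value test that pileup, and the deposited score was not used further. Depth per library is not given in the sources used here.

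Pileups were solved from fold and p-value (largest miss of −log10 p 0.000168, next best pileup 0.0782 by median). Summits were placed on GENCODE 44, and the 3′ edge on the gene strand was taken as the cleavage position. The chromosome lengths of the sequence matched GRCh38. Steps were tested on simulated data. Shares have 95% Wilson intervals and pileups 95% Poisson intervals, both for counting error only, and pileups hold 1 read a position. No test was run. Some genes and sequences are not reported here. All 10 genes were named, with their terminal peaks and strongest other peaks. Members and gene lists were chosen with earlier results of these data known, and the 3 lineage genes and the peaks near transcript starts after values were seen. Python 3.11.15, numpy 2.4.6, scipy 1.17.1, pandas 2.3.3, pysam 0.24.0, samtools 1.23.1 and matplotlib 3.10.9 were used.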

Additional observations from a re-analysis of the deposited data

How the results depend on the processing

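No paired analysis was possible because every value of the list used rests on reads of all libraries together, so no replicate was left out, and the coverage tracks named in the labels were not analysed here. Of the 51 comparisons of the main counts and shares with an alternative, 38 stayed within 1.5 times the count or within the interval of the share. With peaks limited to a −log10 q-value from 20 upward, 11 of the 146 peaks, 8 of the 17 terminal peaks and 1 of the 112 intronic peaks remained by construction, the last being A-rich (100%). From 5 upward, 68 intronic peaks were left. Terminal peaks numbered 8 with 1 transcript per gene and 11 with coding transcripts only, a setting chosen after seeing the data, since fewer ends are then annotated. The share of A-rich intronic peaks, 75%, was 89.3% with at least 6 A, 51.8% with at least 8 A, 7.14% for a 25-base A stretch and 8.93% read from the summit, which lies upstream of the edge. The share of terminal peaks with a hexamer, 100%, was 70.6% for AATAAA and ATTAAA alone and 47.1% from the summit. Intronic counts of single genes moved in 18 of 90 comparisons, among them CCNC from 3 to 0 and CCNH from 8 to 1 without peaks in genes of the other strand. Leaving out peaks that meet the study's A-stretch filter, added after seeing the data, gave 106 intronic peaks, 73.6% of them A-rich. With a median pileup of 10 reads at these genes, differences between single peaks are mostly within counting error.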
